A study of Rattus norvegicus with 60 samples.

Results

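The outer medulla of the kidney was compared between rats of a NOX4 knockout line after 21 days on a diet with 4.0% NaCl (HS21) and rats of the same line under control conditions (LS). The line derives from the Dahl salt-sensitive rat (SS), an inbred strain in which dietary salt raises blood pressure and injures the kidney. All 10 libraries of the comparison carry the knockout, 5 in each diet group, out of 60 libraries in the series. They were chosen by strain, tissue and diet labels alone. The other groups used here, of 5 libraries each, include the NOX4 outer medulla after 7 days of the same diet (HS7). The SS outer medulla and the NOX4 cortex are compared at LS and HS21. Their HS7 groups, also of 5 libraries each, are not compared but entered the fits of those tissues. The labels give no sex, age, salt content of the control diet or number of rats behind a library, and call the line NOX4 without naming the allele. Nothing states that replicates came from separate rats, so the p-values measure the spread between these libraries.

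NOX4 is an NADPH oxidase that makes hydrogen peroxide and is abundant in kidney tubules. The outer medulla holds the thick ascending limb, which reabsorbs much of the filtered salt, the last segment of the proximal tubule, thin limbs, collecting ducts and bundles of vessels. In salt-sensitive hypertension it is known for tubular injury, protein casts, infiltrating leukocytes and fibrosis.

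The NOX4 libraries held 15.7 M to 29.2 M counted reads (M, 1e6) at LS and 15.2 M to 26.1 M at HS21. Thinned to an equal depth of 10 M reads, they showed 17568 to 17772 and 17725 to 17844 genes. Outer medulla markers fitted the tissue label: deposited FPKM at LS averaged 4550 for Umod and 880 for Slc12a1, both of the thick ascending limb, against 1100 and 88.4 in NOX4 cortex. The podocyte gene Nphs1 averaged 0.259 FPKM against 18.1 in cortex. Libraries were numbered in blocks by diet group, so the order of the libraries and the diet cannot be told apart. NOX4 HS7 replicates 3 and 4 stood apart from the other 13 NOX4 outer medulla libraries on the first principal component, which held 36.3% of the variance. They entered the fit, and counts that depend on them are given with and without them. HS21 replicate 3 was the highest library of its group for many of the genes below, and fold changes without it are given for those it moved most.

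Nox4 itself was counted in every library. At LS the 5 libraries gave 3.24, 3.03, 4.77, 9.9 and 3.4 CPM (read counts scaled to 1e6 reads of effective library size). At HS21 they gave 6.71, 4.83, 5.21, 6.58 and 1.78 CPM. The groups overlapped, and the means of 4.87 ± 2.90 and 5.02 ± 1.99 CPM (SD, n = 5 each) did not differ beyond the spread (exact permutation test over 252 splits, 2-sided, p = 0.881, where 0.00794 is the smallest p possible). On the scale of all 30 outer medulla libraries, Nox4 averaged 5.04 ± 3.03 CPM in NOX4 LS and 5.2 ± 2.08 CPM in NOX4 HS21. SS averaged 9.75 ± 2.54 CPM at LS and 14.3 ± 6.47 CPM at HS21, and the ranges of the strains overlapped. The labels do not say which stretch of the gene was removed, so a count over the whole gene does not check the knockout.

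The first question was which genes differed after 21 days of salt in the NOX4 line. By edgeR's quasi-likelihood test none of the 15246 genes tested passed an adjusted p of 0.05 (0% called). The smallest adjusted p was 0.376. At an unadjusted p under 0.05 there were 329 genes higher at HS21 (2.16%) and 252 lower (1.65%). The same test called 0 genes when fitted on the 10 compared libraries, on all 30 outer medulla libraries, and without HS7 replicates 3 and 4. The number at an unadjusted p under 0.05 was less stable. It was 581 (3.81%) in the main fit and 998, 249 and 1120 in these fits. With limma voom, run with a quality weight per library, it was 1798. DESeq2 called 13 genes, all higher at HS21 (0.0855% of 15207), with 684 at an unadjusted p under 0.05. The authors' deposited table called 43, with 35 higher (0.167% of 20941) and 8 lower (0.0382%), and 11 of DESeq2's 13 were among them. The tool behind that table is not stated. In 120 genes every HS21 library lay above every LS library (0.787%), and in 79 every HS21 library lay below (0.518%). With TMM factors taken before the filter on low counts these became 95 and 110, so the balance of higher and lower depends on the scaling. For 12970 of the 15246 genes the 95% interval of the log2 fold change lay within 1 of 0 in both directions.

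**Figure D1:**
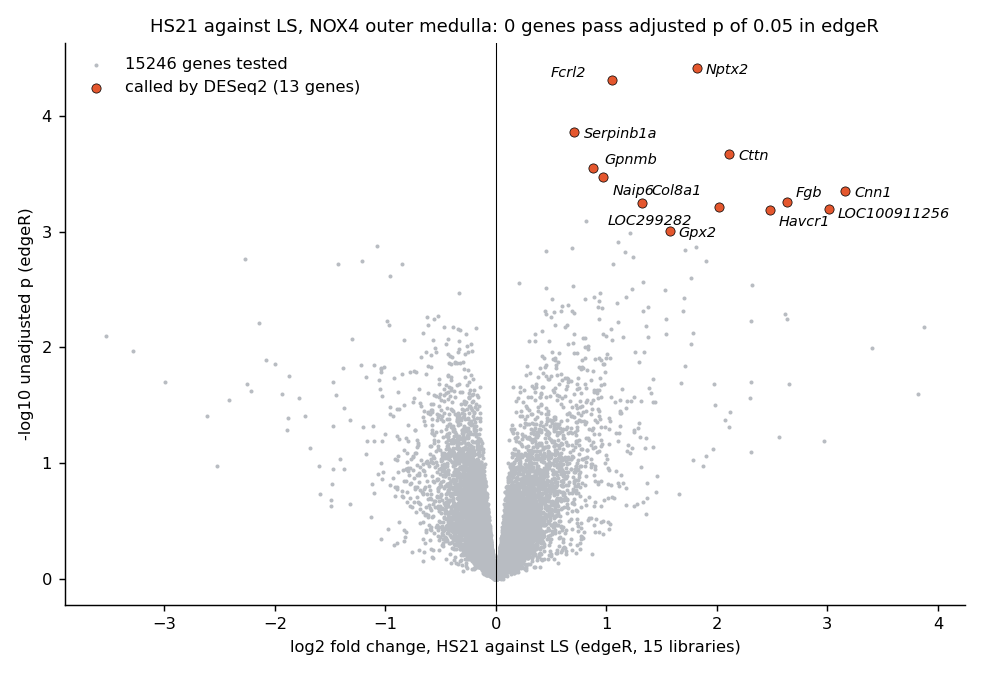
Each point is 1 of 15246 genes in the NOX4 outer medulla, with the log2 fold change of HS21 against LS on the x axis and the -log10 of the unadjusted edgeR p on the y axis. The 13 genes called by DESeq2 are marked and all lie to the right, between log2 fold changes of 0.71 and 3.16. None passes the adjusted threshold in edgeR.

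Several tubular injury genes had higher means at HS21. Havcr1 encodes kidney injury molecule 1, which damaged proximal tubule cells carry on their surface. It lies on chromosome 10 from 31813814 to 31848379 in the deposited annotation, whose build is not given in the sources used here. Its LS libraries gave 2.29, 8.38, 18, 3.74 and 3.90 CPM, and its HS21 libraries 31.6, 34.6, 97.3, 28.9 and 10.7 CPM. HS21 replicate 3 was far above the rest, and HS21 replicate 5 lay below LS replicate 3, so the groups overlapped. The log2 fold change was 2.48 ± 0.58 (SE, unadjusted p = 0.00065, edgeR adjusted p = 0.825), and DESeq2 gave an adjusted p of 0.00874. Without HS21 replicate 3 it was 1.85 ± 0.50 (unadjusted p = 0.00245).

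Of 31 injury genes tested, 9 were higher and 1 lower at an unadjusted p under 0.05, beside 2.16% and 1.65% of all genes. By edgeR none was called, by DESeq2 Havcr1 and Fgb were, and in the authors' deposited table Fgb and Spp1 were. The median log2 fold change of the list was 0.21, against -0.002 for all genes, and 26 of 31 were above 0. Without HS21 replicate 3, when 1.28% of all genes were higher and 1.21% lower, the list had 6 higher, 1 lower and a median of 0.11. The higher members included Spp1 (osteopontin, a secreted phosphoprotein), whose LS libraries gave 2070, 2690, 2060, 2020 and 2140 CPM. Its HS21 libraries gave 3160, 4130, 5850, 2680 and 3410 CPM, and only HS21 replicate 4 lay below the highest LS library. Spp1 had a log2 fold change of 0.81 ± 0.24 (unadjusted p = 0.00378), or 0.59 without HS21 replicate 3, and its adjusted p in the authors' deposited table was 0.0188. In 2 of the 31 genes every HS21 library lay above every LS library (0.787% of all genes), and in 0 every one lay below (0.518%). Further members are given as group means only, without their spread. Clu (clusterin, an extracellular chaperone) averaged 188 CPM at LS and 391 CPM at HS21. Lcn2 (neutrophil gelatinase-associated lipocalin) averaged 23.3 and 39.9 CPM, and Cd44, the hyaluronan receptor, 48.8 and 66.6 CPM. Itgb6, an epithelial integrin subunit, was the member on the lower side, at 72.5 and 56.2 CPM.

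**Figure D2:**
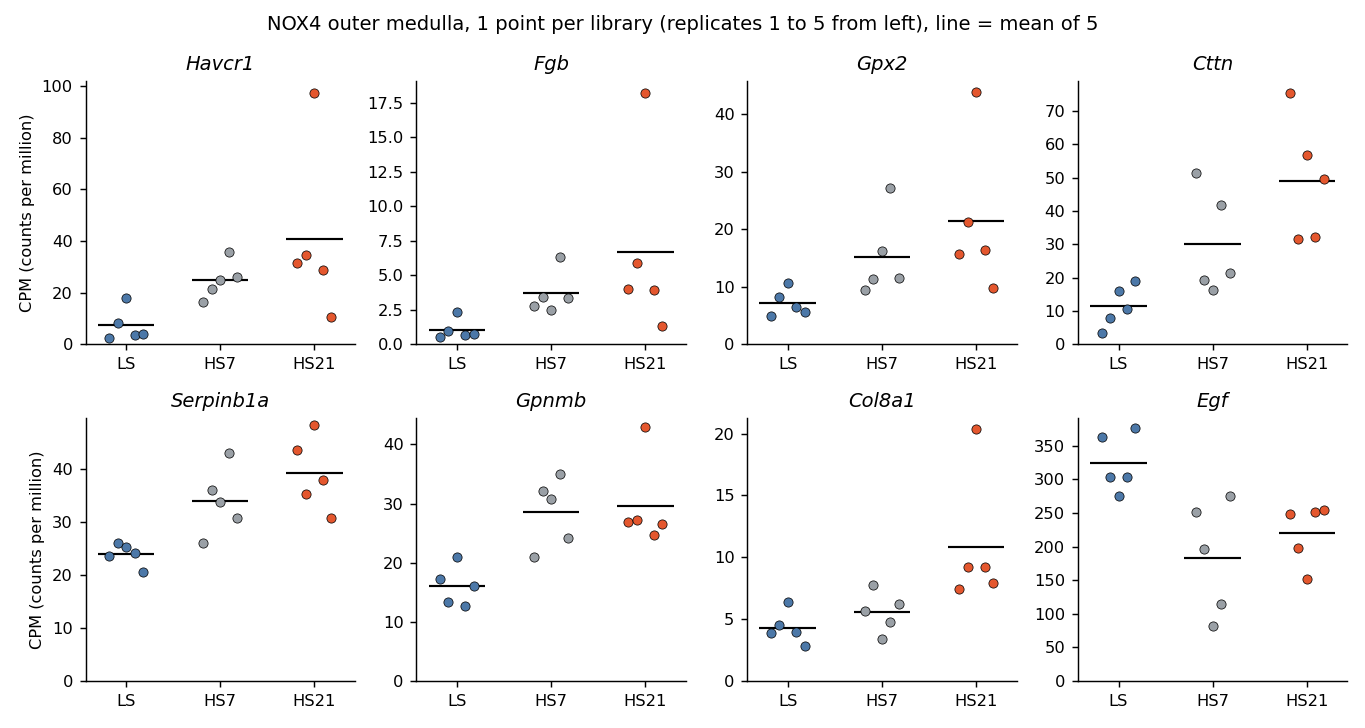
CPM of 8 genes in the NOX4 outer medulla at LS, HS7 and HS21, with 1 point per library in the order of replicates and a line at the mean of 5. HS21 replicate 3 is the highest HS21 library for Havcr1 (97.3 CPM), Fgb (18.2), Gpx2 (43.8), Serpinb1a (48.3), Gpnmb (43.0) and Col8a1 (20.4), whereas for Egf it is the lowest (152).

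Fibrinogen is a plasma clotting protein of 3 chains made mainly in liver, and injured tubules are known to transcribe its genes. The 3 chain genes, Fga, Fgb and Fgg, are neighbours. Their promoter windows are shown because the 3 genes shared their highest and their lowest HS21 library, though Fga was at a higher level. Each window runs from 250 bases before the start site to 50 after it, 5′ to 3′ on the gene's own strand, from RefSeq on the GRCr8 build: chr2:170671919-170672218 (plus) for Fga, chr2:170700826-170701125 (minus) for Fgb and chr2:170652833-170653132 (plus) for Fgg. For Fga this is the first of the start sites listed. Capitals mark matches on either strand to TTCNNNGAA, the form bound by STAT factors, and to TGANTCA, the form bound by AP-1; no match overlaps another.
Fga: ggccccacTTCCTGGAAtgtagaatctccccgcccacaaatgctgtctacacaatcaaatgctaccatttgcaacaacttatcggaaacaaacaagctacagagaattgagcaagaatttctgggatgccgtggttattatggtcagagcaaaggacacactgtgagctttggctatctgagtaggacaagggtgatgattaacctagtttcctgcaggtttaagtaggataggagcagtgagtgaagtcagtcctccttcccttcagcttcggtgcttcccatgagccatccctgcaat
Fgb: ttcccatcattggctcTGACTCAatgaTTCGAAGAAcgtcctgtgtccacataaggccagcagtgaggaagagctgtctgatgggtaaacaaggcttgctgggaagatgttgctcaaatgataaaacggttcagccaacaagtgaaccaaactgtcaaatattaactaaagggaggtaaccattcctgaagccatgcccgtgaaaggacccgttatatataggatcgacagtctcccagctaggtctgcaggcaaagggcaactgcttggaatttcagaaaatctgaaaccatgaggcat
Fgg: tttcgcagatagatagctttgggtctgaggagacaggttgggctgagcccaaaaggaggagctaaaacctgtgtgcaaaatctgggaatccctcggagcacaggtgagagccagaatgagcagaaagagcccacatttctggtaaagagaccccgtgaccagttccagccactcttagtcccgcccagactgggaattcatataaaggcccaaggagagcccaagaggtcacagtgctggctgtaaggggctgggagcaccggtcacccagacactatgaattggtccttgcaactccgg
The Fga window shown held TTCCTGGAA, while the window of the other Fga start site listed, which begins at 170671937, held neither form. The Fgb window held TTCGAAGAA and TGACTCA. The Fgg window held neither form. Among all 33469 promoter windows of this length, 8.87% held the first form and 7.33% the second.

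Fgb was counted at 0.559, 0.967, 2.34, 0.700 and 0.724 CPM at LS and at 4.01, 5.88, 18.2, 3.93 and 1.33 CPM at HS21. HS21 replicate 5 lay below LS replicate 3, and the other HS21 libraries lay above all LS libraries. The log2 fold change was 2.63 ± 0.60 (unadjusted p = 0.000559), and 1.81 ± 0.47 without HS21 replicate 3. Fgg gave 0.112, 1.03, 3.15, 0.945 and 0.779 CPM at LS and 2.85, 7.46, 14.8, 3.76 and 1.74 CPM at HS21. Fga gave 4.58, 18.5, 38.8, 17.5 and 9.19 CPM at LS and 27.3, 50.4, 112, 37.1 and 11.7 CPM at HS21. Without HS21 replicate 3 the log2 fold change of Fgg was 1.69 instead of 2.31. That of Fga was 0.82 instead of 1.42, with an unadjusted p of 0.107 instead of 0.0186. In all 3 genes LS replicate 3 was the highest LS library, HS21 replicate 3 the highest HS21 library and HS21 replicate 5 the lowest. Only Fgb was called by DESeq2, with an adjusted p of 0.00874, and in the authors' deposited table, with 0.00835.

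The 34 complement and coagulation genes, which include the fibrinogen chains, had 5 members higher and 0 lower at an unadjusted p under 0.05. Over all genes these shares were 2.16% and 1.65%. The median log2 fold change of the list was 0.11. Cfi (complement factor I, a protease that cuts C3b and C4b) had groups apart. Its LS libraries gave 2.91, 3.80, 2.57, 2.24 and 1.73 CPM and its HS21 libraries 4.22, 5.50, 8.33, 3.82 and 6.63 CPM, a log2 fold change of 1.11 ± 0.28 (unadjusted p = 0.00122), or 0.92 without HS21 replicate 3. Complement C4 was split by the deposited annotation into near-identical genes, so their separate values are uncertain. Summed over the C4a and C4b entries, LS averaged 131 ± 34.5 CPM and HS21 255 ± 129 CPM, and the groups overlapped.

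Serpinb1a, Gpnmb and Cttn were among the 15 genes with the smallest p on the higher side, and all 3 had groups apart. Serpinb1a, an inhibitor of neutrophil proteases, gave 23.6, 26, 25.3, 24.1 and 20.5 CPM at LS and 43.6, 35.3, 48.3, 37.9 and 30.8 CPM at HS21. No library of one group reached the range of the other, and the log2 fold change was 0.71 ± 0.14 (unadjusted p = 0.000139, DESeq2 adjusted p = 0.00874). Gpnmb, a lysosomal glycoprotein of macrophages and stressed epithelium, gave 17.3, 13.4, 21.0, 12.7 and 16.1 CPM against 26.8, 27.3, 43.0, 24.7 and 26.5 CPM. The groups were apart, with HS21 replicate 3 well above the other HS21 libraries. Its log2 fold change was 0.88 ± 0.19 with that library and 0.70 without it. Cttn (cortactin, which binds branched actin) gave 3.30, 7.86, 16.1, 10.6 and 18.9 CPM at LS and 75.4, 31.7, 56.7, 32.2 and 49.7 CPM at HS21. The groups were apart and the log2 fold change was 2.11 ± 0.44 (unadjusted p = 0.000215, DESeq2 adjusted p = 0.00393). The deposited table lists Cttn under 2 gene identifiers, and the other one was at or near 0 in each library, so the sum was also apart.

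Fcrl2, an Fc receptor-like gene of leukocytes, gave 6.37, 8.12, 8.11, 6.30 and 5.62 CPM at LS and 11.7, 12.4, 19.2, 12.1 and 15.9 CPM at HS21. Its log2 fold change of 1.05 ± 0.19 came with the lowest DESeq2 adjusted p, 0.00192, and the groups were apart. Nptx2, a secreted pentraxin known from synapses, had the smallest unadjusted p in edgeR (3.89e-05) but was scarce. Its LS libraries lay between 0.334 and 0.391 CPM and its HS21 libraries between 0.660 and 1.77 CPM, from 6 to 47 reads per library. Naip6, a sensor protein of the inflammasome, gave 1.5 to 2.03 CPM at LS and 2.14 to 4.12 CPM at HS21. Gpx2, an epithelial glutathione peroxidase, gave 4.86 to 10.7 CPM and 9.82 to 43.8 CPM, and the groups overlapped through HS21 replicate 5. Its log2 fold change was 1.57, or 1.12 without HS21 replicate 3. Cdkn2b, an inhibitor of the cell cycle, gave 0.838 to 1.26 CPM and 1.62 to 3.84 CPM, with groups apart. Ric3, a chaperone of acetylcholine receptors, was also among the 15 highest, at 0.967 to 1.94 CPM and 2.22 to 3.48 CPM. Nptx2 and Cnn1, a smooth muscle gene, entered the 15 although they averaged over 1 CPM only at HS21. Of these 15 genes 12 had groups apart, beside 0.787% of all genes, a share that follows from choosing them by their p.

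DESeq2's remaining calls were LOC299282, named serine protease inhibitor in the deposited annotation, and LOC100911256, named ninein-like. LOC299282 averaged 6.60 ± 2.92 CPM at LS and 26.9 ± 23.7 CPM at HS21, with 67.9 CPM in HS21 replicate 3. Its log2 fold change was 2.02, or 1.32 without that library, and it belongs to a family of like genes. LOC100911256 gave 0.140 to 0.540 CPM at LS, and at HS21 1.78, 3.77, 0.130, 1.94 and 2.71 CPM, so that HS21 replicate 3 was the lowest of all 10. Reads can be split between it and Nin, the ninein gene: summed, they averaged 8.62 ± 2.14 CPM at LS and 8.64 ± 1.54 CPM at HS21, with overlap, so the value of LOC100911256 alone is uncertain.

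Extracellular matrix genes were split. Of 48 tested, 6 were higher and 2 lower at an unadjusted p under 0.05, the median was 0.02 and 25 were above 0. Without HS21 replicate 3 there were 2 higher and 3 lower, and the median was -0.15. Of all genes 2.16% were higher and 1.65% lower, or 1.28% and 1.21% without HS21 replicate 3. Col8a1, a short-chain collagen of vessel walls, gave 3.86, 4.51, 6.35, 3.99 and 2.84 CPM at LS and 7.42, 9.24, 20.4, 9.18 and 7.92 CPM at HS21. The groups were apart, and the log2 fold change of 1.32 ± 0.30 became 0.96 without HS21 replicate 3. Postn (periostin, a matrix protein of fibrosis) gave 0.630 to 1.00 CPM and 1.16 to 4.49 CPM, and Timp1, an inhibitor of matrix proteases, averaged 14.1 ± 2.28 and 23.9 ± 8.28 CPM. Both had groups apart. Postn had a log2 fold change of 1.38, or 0.94 without HS21 replicate 3. Cnn1 (calponin, of contractile smooth muscle) was at 0.0557 to 0.193 CPM at LS, a few reads per library, and at 0.445 to 0.664 CPM in 4 HS21 libraries, with 3.19 CPM in HS21 replicate 3. Its log2 fold change was 3.16, or 2.17 without that library. Over the 17 genes of smooth muscle and pericytes the median was -0.01, with 1 higher and 2 lower at an unadjusted p under 0.05.

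Of 23 tested macrophage and lymphocyte markers, 3 were higher and 0 lower at an unadjusted p under 0.05, beside 2.16% and 1.65% of all genes. By edgeR none of the markers was called. Their median log2 fold change was 0.22, 20 of them were above 0, and 4 had all HS21 libraries above all LS libraries, against 0.787% of all genes. In bulk tissue, more or fewer cells of a type and more or less RNA per cell cannot be told apart. The mean log2 CPM of the list was 4.94, 4.86, 4.81, 4.98 and 4.86 at LS and 5.11, 5.08, 5.10, 5.04 and 5.2 at HS21. Here HS21 replicate 3 did not stand out, and the groups did not overlap. Itgam, the macrophage and neutrophil integrin CD11b, gave 8.50, 5.93, 9.37, 9.45 and 9.69 CPM at LS and 12, 10.5, 11.8, 11.1 and 13.3 CPM at HS21 (log2 fold change 0.45 ± 0.14, unadjusted p = 0.00518). The T cell receptor subunit gene Cd3d averaged 1.25 ± 0.33 and 1.95 ± 0.25 CPM, Cd3g 3.15 ± 0.42 and 4.01 ± 0.30 CPM, and Fcer1g, a signalling chain of Fc receptors, 70.7 ± 7.90 and 86.7 ± 5.67 CPM, all apart.

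The number of leukocyte markers at an unadjusted p under 0.05 depended on the HS7 libraries that share the fit. It was 3 of 23 with all 15 libraries, 11 without HS7 replicates 3 and 4 and 14 with only the 10 compared libraries, none lower in each case. Of all genes 3.96% were higher and 3.29% lower in the fit without HS7 replicates 3 and 4, and 3.79% and 2.93% in the fit of 10. No marker was called in any of these fits. HS7 replicates 3 and 4 had the highest leukocyte scores of all 15, 5.57 and 5.86. Leukocyte genes that the authors' deposited table called include Clec7a, the beta-glucan receptor Dectin-1. It gave 14.6, 14.2, 13.8, 15.6 and 13.1 CPM at LS and 18.1, 20, 20, 19.9 and 18.6 CPM at HS21. Its unadjusted p was 0.0124 in the fit of 15 libraries and 5.72e-05 in that of 10, where its adjusted p was 0.297. Igsf6, an immunoglobulin-family gene of myeloid cells, gave 10.2 to 11.7 CPM and 13.6 to 16.2 CPM, with unadjusted p of 0.0907 and 0.000117 in these fits. Fcgr3a, a receptor for antibodies, gave 23.5 to 29.6 CPM and 33.5 to 45.9 CPM. In each of these 3 the groups were apart, as in 34 of the 43 genes called in the authors' deposited table. They were chosen from calls made on these same libraries, so their separation is no separate evidence.

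The NADPH oxidase list, the family to which NOX4 belongs, was measured through 9 genes. Cybb, the catalytic subunit of the phagocyte enzyme, averaged 138 ± 5.71 CPM at LS and 160 ± 10.4 CPM at HS21, and the groups overlapped. Its GTPase partner Rac2 gave 44.6 to 51.3 CPM at LS and 53.8 to 60.2 CPM at HS21, with groups apart. None of the 9 had an unadjusted p under 0.05 in the fit of 15 libraries. In the fit of 10 libraries 4 were higher and 1 lower, beside 3.79% and 2.93% of all genes. The list's median was 0.19.

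**Figure D3:**
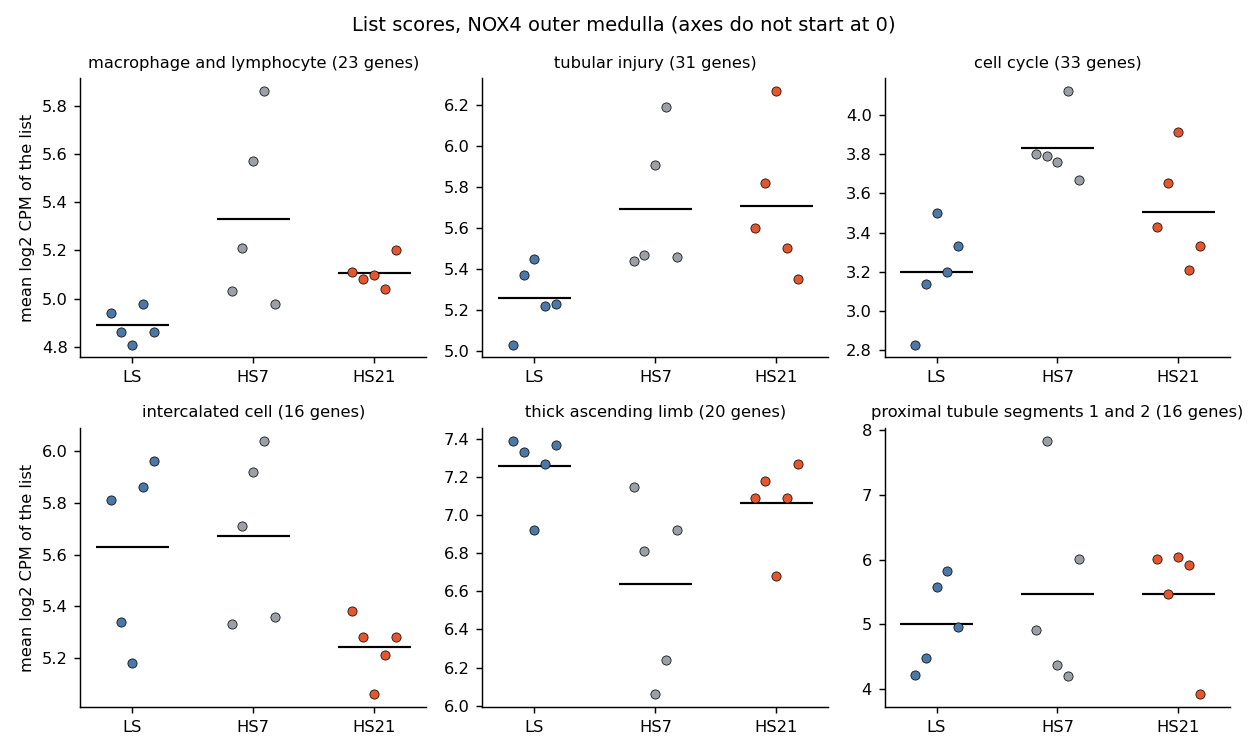
Mean log2 CPM of 6 gene lists in each NOX4 outer medulla library at LS, HS7 and HS21, with a line at the mean of 5. The HS21 leukocyte scores (5.04 to 5.2) lie above all LS scores (4.81 to 4.98), while in the other 5 lists the 2 groups overlap.

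Cell cycle genes had a median of 0.34 over 33 members, 31 of them above 0 and 5 higher at an unadjusted p under 0.05. Ccne1 (cyclin E1, of S-phase entry) averaged 1.62 ± 0.41 and 2.79 ± 0.84 CPM, and Prc1, of the mitotic spindle, 9.45 ± 2.40 and 13.9 ± 4.10 CPM. The list's scores overlapped, at 2.83 to 3.50 for LS and 3.21 to 3.91 for HS21. Without HS21 replicate 3 the count was 1 and the median 0.19. No member had groups apart. Of all genes 2.16% were higher and 1.65% lower, or 1.28% and 1.21% without HS21 replicate 3. Chemokine, cytokine and adhesion genes had 4 of 32 higher and 0 lower, with a median of 0.04, and without HS21 replicate 3 they had 2 higher and 2 lower. Among them Cxcl13, a chemokine that attracts B cells, averaged 12.5 ± 4.34 CPM at LS and 23.8 ± 4.98 CPM at HS21, and LS replicate 2 (20 CPM) lay within the HS21 range. The 30 interferon response genes had 0 higher and 1 lower, a median of -0.11, and 95% intervals that all lay within 1 of 0 on the log2 scale.

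Markers of the thick ascending limb and of intercalated cells tended the other way. Egf, which the thick ascending limb and distal tubule secrete as epidermal growth factor, gave 363, 304, 276, 304 and 377 CPM at LS and 248, 198, 152, 251 and 254 CPM at HS21. The groups were apart, but the spread across the 15 libraries left a log2 fold change of -0.56 ± 0.27 (unadjusted p = 0.0569). Over 20 thick ascending limb genes, 17 were below 0, the median was -0.25 and none reached an unadjusted p under 0.05. Without HS7 replicates 3 and 4 there were 4 lower, beside 3.29% of all genes. Slc12a1, the Na-K-2Cl cotransporter that furosemide blocks, averaged 4717 ± 1121 and 3662 ± 869 CPM, with overlap. The scores were 7.39, 7.33, 6.92, 7.27 and 7.37 at LS and 7.09, 7.18, 6.68, 7.09 and 7.27 at HS21. Replicate 3 was the lowest in both groups.

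All 16 intercalated cell genes had a log2 fold change below 0, with a median of -0.50, and 5 were lower at an unadjusted p under 0.05. These acid-base cells of the collecting duct express Aqp6, which averaged 364 ± 111 CPM at LS and 249 ± 43.5 CPM at HS21, and the ammonia transporter Rhcg, at 230 ± 54.8 and 161 ± 23.5 CPM. Slc4a1, their chloride-bicarbonate exchanger, gave 522, 365, 289, 384 and 548 CPM against 305, 311, 211, 264 and 312 CPM. The LS libraries split, with scores of 5.34 and 5.18 in replicates 2 and 3 and 5.81 to 5.96 in the rest, whereas HS21 scores lay between 5.06 and 5.38, so the groups overlapped. Of all genes 1.65% were lower in the fit of 15 libraries. Without HS21 replicate 3 there were 2 lower in the list (1.21% of all genes), and without HS7 replicates 3 and 4 there were 10 (3.29%). The part of this marker list in the other results was not tested.

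Principal cells had 1 of 14 lower, where 2.16% of all genes were higher and 1.65% lower, and a median of -0.19. Scnn1a, the alpha subunit of the epithelial sodium channel, averaged 100 ± 38.3 and 65.5 ± 19.8 CPM. All 13 thin limb genes were below 0, with a median of -0.31 and 1 lower at an unadjusted p under 0.05. All 16 genes of proximal tubule segments 1 and 2 were above 0, with a median of 0.34, yet none reached an unadjusted p under 0.05 and none had an interval within 1 of 0. Their summed level ranged from 1500 to 5880 CPM at LS and from 1700 to 5290 CPM at HS21, with wide overlap. Segment 3, which belongs to the outer medulla, had 1 of 14 higher and a median of 0.19. Markers of the distal convoluted tubule (median -0.03 over 9), podocytes (-0.03 over 13), red blood cells (0.23 over 7) and adipocytes (0.12 over 7) gave 0 higher in each, with 1 podocyte gene lower. The 18 endothelial genes had 2 lower and a median of -0.22. Among them Cdh5, the junction protein VE-cadherin, averaged 61.7 ± 9.34 and 48.9 ± 4.45 CPM. The 8 urothelial genes had the highest median of any list, 0.91, with none at an unadjusted p under 0.05, and it was -0.10 without HS21 replicate 3. The uroplakin gene Upk3a gave 9.63 CPM in that library and 0 to 1.83 CPM in the other HS21 libraries.

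**Figure D4:**
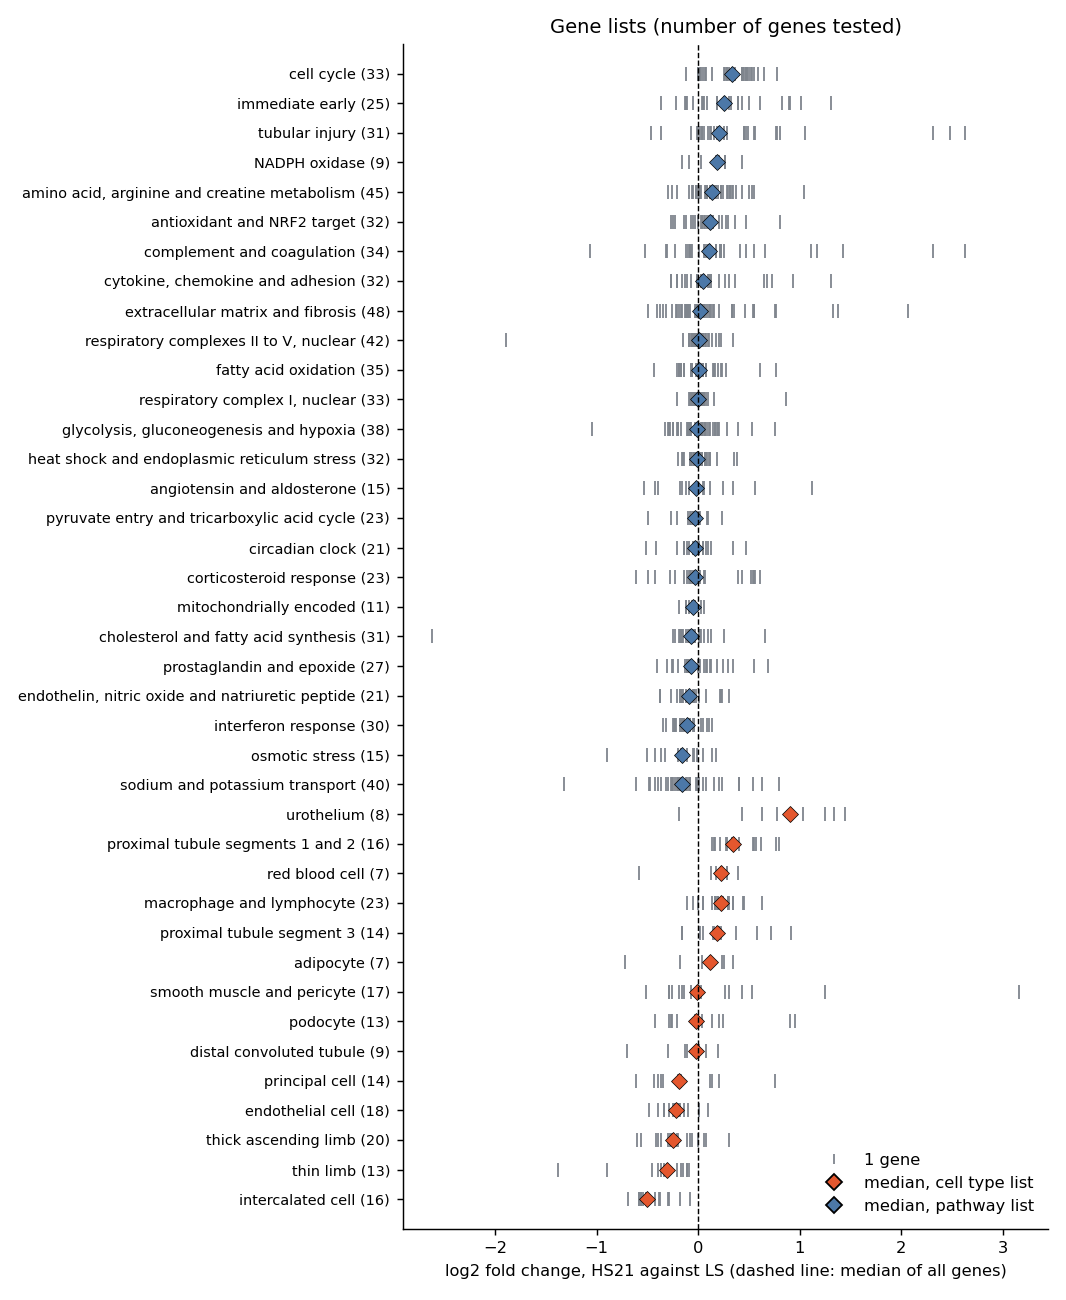
Log2 fold change of HS21 against LS in the NOX4 outer medulla for each tested gene of 39 lists (ticks) and the median of each list (diamonds), with the median of all genes as a dashed line. Medians run from -0.50 for intercalated cells to 0.91 for urothelium, and those of the respiratory complexes lie at 0.

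The respiratory chain was measured tightly. The median was -0.001 over 33 nuclear genes of complex I, 0.01 over 42 of complexes II to V and -0.05 over 11 mitochondrially encoded genes. The 95% interval lay within 1 of 0 for 31, 41 and 11 of them. None had an unadjusted p under 0.05, where 2.16% of all genes were higher and 1.65% lower. Fatty acid oxidation (35 genes, median 0.01), pyruvate entry and the tricarboxylic acid cycle (23, -0.03), and heat shock and endoplasmic reticulum stress (32, -0.02) also had none. Glycolysis, gluconeogenesis and hypoxia (38, -0.01) had 1 lower, Epas1, a hypoxia-inducible factor subunit, at 296 ± 53.1 and 245 ± 19.7 CPM. Amino acid, arginine and creatine metabolism (45, 0.13) had 0. Cholesterol and fatty acid synthesis (31, -0.07) had 1 higher and 1 lower. Of 32 antioxidant and NRF2 target genes 1 was higher: Srxn1 (sulfiredoxin, which repairs peroxiredoxins) averaged 1.94 ± 0.60 and 3.39 ± 0.67 CPM. Hmox1, heme oxygenase 1, gave 9.21 to 11 CPM at LS and 11.6, 12.7, 22.5, 12.9 and 11.8 CPM at HS21. The groups were apart, with HS21 replicate 3 well above the other HS21 libraries. Its log2 fold change was 0.468 (edgeR unadjusted p = 0.0538), and 0.235 to 0.533 with libraries left out singly.

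Among regulators of salt and pressure, sodium and potassium transport genes had 0 of 40 higher and 2 lower, with a median of -0.16. Shares over all genes at an unadjusted p under 0.05 were 2.16% higher and 1.65% lower. The angiotensin and aldosterone list had 1 of 15 higher and 2 lower, with a median of -0.02. Agtr1a, the main angiotensin II receptor, averaged 73.8 ± 15.4 CPM at LS and 55.0 ± 2.57 CPM at HS21. Endothelin, nitric oxide and natriuretic peptide genes (21, median -0.09), prostaglandin and epoxide genes (27, -0.07), circadian clock genes (21, -0.03) and immediate early genes (25, 0.25) had none at an unadjusted p under 0.05. Of 15 osmotic stress genes 1 was lower, Nfat5, the tonicity-responsive transcription factor, at 470 ± 74.1 and 376 ± 49.7 CPM, and the median was -0.16. Corticosteroid response genes had 3 of 23 higher and 1 lower, with a median of -0.03. The metallothionein gene Mt2A gave 247, 223, 200, 256 and 245 CPM at LS and 381, 311, 395, 280 and 315 CPM at HS21, with groups apart and a log2 fold change of 0.52 ± 0.16.

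The 15 genes with the smallest p on the lower side had weaker separation, and 5 had groups apart. Of all genes 0.518% had every HS21 library below every LS library. The larger share among the 15 follows from choosing them by their p. None was called by edgeR or DESeq2, while the authors' deposited table called Thsd7b (adjusted p 0.0168) and Amotl2 (0.0496). Thsd7b, a thrombospondin-domain membrane gene, gave 0.451 to 2.84 CPM at LS and 0.121 to 0.559 CPM at HS21 (log2 fold change -2.27 ± 0.60, unadjusted p = 0.00172). Thbs4 (thrombospondin 4, of the matrix) gave 1.94 to 7.63 CPM and 1.83 to 2.53 CPM, and Muc13, an epithelial mucin, 2.40 to 10.2 CPM and 1.21 to 4.43 CPM. These overlapped. Hdac2, a histone deacetylase, had the tightest values, at 74.3, 75.5, 74.7, 74.4 and 80.2 CPM against 65.6, 68.1, 69.6, 66.0 and 64.9 CPM, a log2 fold change of -0.18 ± 0.06. Amotl2, which tethers the Hippo effector YAP at junctions, gave 194 to 234 and 160 to 189 CPM, and Nuak2, a kinase of the AMPK family, 207 to 245 and 144 to 201 CPM. Asic2, an acid-sensing ion channel (7.73 to 12.3 and 6.06 to 7.09 CPM), and Hoxd11, a patterning gene of the kidney (3.42 to 6.04 and 2.59 to 3.32 CPM), also had groups apart. The others were Ak5, Clec2l, Gfra2, Igf2, Hist1h1c, Ppm1d and Pax2, with log2 fold changes from -0.99 to -0.32.

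At 7 days the same control libraries serve as baseline, so the comparisons with LS are not independent. HS7 against LS called 0 of 15246 genes, with 3027 at an unadjusted p under 0.05, and HS21 against HS7 called 0, with 1952. Without HS7 replicates 3 and 4 these were 1047 and 722, again with 0 called. DESeq2 called 275 and 16. Havcr1 had a log2 fold change of 1.78 at 7 days beside 2.48 at 21 days, Fgb 1.78 beside 2.63, Serpinb1a 0.50 beside 0.71, Gpnmb 0.83 beside 0.88 and Cttn 1.40 beside 2.11. Col8a1 had 0.36 beside 1.32 and Cfi 0.21 beside 1.11. In HS7 the Havcr1 libraries gave 16.3, 21.5, 25.0, 35.9 and 26.1 CPM, all within the range spanned at HS21.

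In wild-type SS rats, fitted with NOX4 over the 30 outer medulla libraries, 836 genes rose from LS to HS21 (5.29% of 15799) and 721 fell (4.56%), where NOX4 had 0 in the same fit. SS LS replicates 2, 3 and 5 showed 14578 to 15281 genes at 10 M reads, fewer than the 17851 and 18237 of the other SS LS libraries. Without these 3 libraries 223 genes rose (1.34%) and 230 fell (1.39%) in SS. By earlier results of these data SS HS7 also holds libraries with few detected genes, and all SS HS7 libraries stayed in these fits. Of the 15 genes highest in NOX4, all 15 had a positive log2 fold change in SS and 11 rose there, or 7 without the 3 libraries. Havcr1 had 3.34 ± 0.50 in SS, Serpinb1a 1.24 ± 0.15 and Col8a1 2.83 ± 0.40. Of the 15 lowest, 11 were below 0 in SS and 3 fell, or 1 without the 3 libraries.

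**Figure D5:**
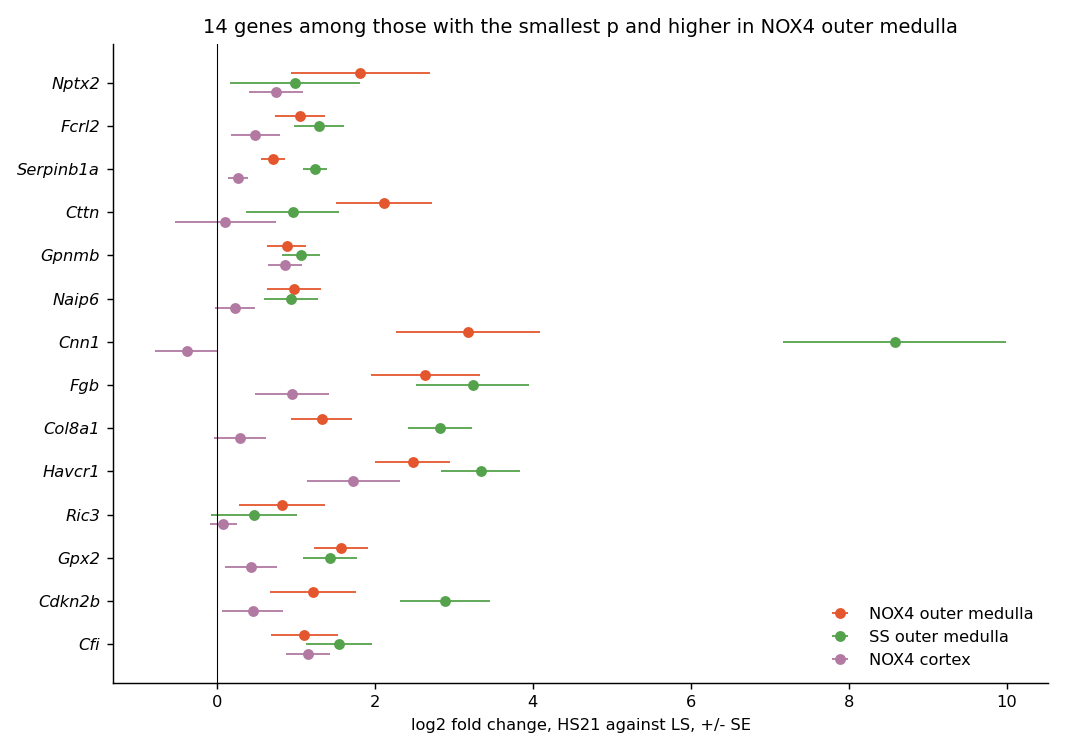
Log2 fold change of HS21 against LS, with its SE, for 14 of the 15 genes that ranked highest in the NOX4 outer medulla. Values for NOX4 and SS outer medulla come from 1 fit of 30 outer medulla libraries. Those for NOX4 cortex come from a fit of the 30 NOX4 libraries of both tissues. All 14 SS values are above 0, and in cortex 13 of 14 are.

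Whether salt acted differently in the strains was tested as the difference of the differences. It called 4 of 15799 genes (0.0253%), and none of the 15 highest or 15 lowest genes was among them (smallest adjusted p 0.338 and 0.632). The nearest were Serpinb1a (NOX4 minus SS -0.53 ± 0.21), Col8a1 (-1.50 ± 0.54) and Cnn1 (-5.40 ± 1.90), with unadjusted p of 0.0184, 0.00971 and 0.00913. In the 4 called genes the NOX4 means were close and the SS LS mean was far from the other 3 groups. Hnrnpa0, an RNA-binding protein gene, averaged 293 ± 17.5 and 265 ± 22.4 CPM in NOX4 at LS and HS21, and 169 ± 25.2 and 296 ± 20.5 CPM in SS. LOC100361061, a ribosomal protein L13a-like pseudogene, averaged 138 ± 17.7 and 156 ± 11.5 CPM in NOX4, and 60.6 ± 6.52 and 161 ± 9.56 CPM in SS. AABR07015081.2 and the miRNA gene AABR07015081.1 overlap on chromosome 14, so their reads cannot be separated without strand. The first averaged 110 ± 28.6 and 99.3 ± 31.8 CPM in NOX4, and 469 ± 85.8 and 85.9 ± 15.2 CPM in SS. Without SS LS replicates 2, 3 and 5 none of these 4 passed (adjusted p from 0.134 to 0.162), and Mt-atp8 alone was called. The differences themselves were then -0.97 for Hnrnpa0, -1.20 for LOC100361061, 2.77 for AABR07015081.1 and 2.37 for AABR07015081.2, beside -0.95, -1.23, 3.18 and 2.30 with all 30 libraries. The count was 267 in a fit of only the 20 libraries of the 4 groups compared, without the HS7 libraries. It was 125 with DESeq2 and 1432 with limma voom and its quality weights.

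In the NOX4 cortex, HS21 against LS called 0 of 14636 genes in a fit of 15 cortex libraries, with 642 at an unadjusted p under 0.05. The cortex fold changes given here come from a fit of the 30 NOX4 libraries of both tissues. Of the 15 highest genes 14 were above 0 there. Havcr1 had a log2 fold change of 1.72 in cortex, Gpnmb 0.86 and Cfi 1.16, and Cttn had 0.11. The difference between tissues called 0 of 15667 genes (0%), with 358 at an unadjusted p under 0.05, while DESeq2 called 3 and limma voom 2. The smallest unadjusted p was that of Cnn1, with 3.54 ± 0.70 more in outer medulla than in cortex on the log2 scale (2.68e-05, adjusted p = 0.217). The labels do not say which cortex and outer medulla pieces came from 1 rat, so this test took all libraries as independent.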

How the data were processed

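RNA of snap-frozen kidney tissue was sequenced from poly(A)-enriched libraries, per the labels' protocols. Per the submitters' processing notes, the authors used HISAT2 2.0.5, StringTie 1.3.3b and featureCounts 1.5.0-p3; strandedness and genome build are not given in the sources used here. Per the file headers, the authors deposited a read count and an FPKM per gene and library, and a log2 fold change and a p-value for each comparison of theirs.

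The tests used edgeR 4.0.16 (R 4.3.3) on the count columns of 32545 genes: filterByExpr by group, TMM, and a quasi-likelihood F test over the 15 NOX4 outer medulla libraries (30 for differences between strains or tissues), with Benjamini-Hochberg adjustment and a threshold of 0.05. The SE is the log2 fold change over the square root of F. List scores are means of log2 CPM with a prior count of 2. DESeq2 1.42.0 and limma voom 3.58.1 were alternatives, and voom was always run with a quality weight per library. Reads carry no molecular identifiers. The script was tested on simulated data.

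The groups, the 39 gene lists (887 of 951 symbols matched by name, 29 more through RefSeq) and the named genes were chosen with earlier results of these data known. Nox4 was named first, then the 15 genes on each side with the smallest p and a mean of at least 1 CPM in LS or HS21 (only HS21 for Nptx2 and Cnn1, only LS for Thsd7b), none called by edgeR, and up to 2 genes per list. Other genes, among them those of DESeq2 and of the deposited table, the fibrinogen genes and further list members, were chosen after their values were seen. Some genes are not reported here.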

Additional observations from a re-analysis of the deposited data

Results flagged for a closer look

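Of 84 groups of 5 libraries checked, 15 held a library far from the others by Dixon's test. Chance gives about 1 in 20 for independent, normally distributed values. Most genes checked were chosen by their p in these same libraries and can vary together. The number is therefore a description and no test of an excess. In 7 of the 15 that library was HS21 replicate 3. It was the highest of its group for Gpnmb (43.0 CPM), Cnn1 (3.19 CPM), Fgb (18.2 CPM), Col8a1 (20.4 CPM), Havcr1 (97.3 CPM), LOC299282 (67.9 CPM) and the complement and coagulation score (5.44). HS21 replicate 5 was highest for Ric3 (3.48 CPM) and lowest for the score of proximal tubule segments 1 and 2 (3.92), and HS21 replicate 1 was lowest for Hist1h1c (229 CPM). LS replicate 3 was highest for Fgb (2.34 CPM) and LOC100911256 (0.540 CPM) and lowest for the thick ascending limb score (6.92). LS replicate 5 was highest for Hdac2 (80.2 CPM) and LS replicate 4 for Nox4 (9.90 CPM).

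The salt response was called as different between the strains for 4 genes by edgeR's interaction contrast. As NOX4 minus SS on the log2 scale these were Hnrnpa0 (-0.95), LOC100361061 (-1.23), AABR07015081.1 (3.18) and AABR07015081.2 (2.30). In each of them the SS LS mean lay far from the means of the other groups. Without the 3 SS LS libraries with few genes, none of these passed in the same test (adjusted p from 0.134 to 0.162). With libraries left out singly, the number of genes called ranged from 0 to 7.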

How the results depend on the processing

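HS21 against LS called 0 genes in edgeR with DESeq2's size factors, without a filter, with a filter of 1 CPM, with a score of proximal tubule segment 3 or of the thick ascending limb as covariate, with limma voom, and in each fit without 1 library (0 to 0); DESeq2's own test called 13. HS7 against LS called 275 with DESeq2 and 0 to 1 without 1 library, and HS21 against HS7 called 16 with DESeq2 and 0 to 0 without 1 library. The strain difference, 4 in the fit of 30, was 125 with DESeq2, 1432 with limma voom, 267 in 20 libraries, 1 without 3 SS LS libraries (chosen after seeing the data) and 0 to 7 without 1 library. The tissue difference was 3 with DESeq2, 2 with limma voom and 0 to 0 without 1 library. The cause of these changes was not tested.

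Genes with groups apart numbered 120 above and 79 below, 113 and 90 with DESeq2's size factors, 125 and 73 in FPKM, 95 and 110 with TMM before the filter, and 146 to 298 and 103 to 337 without 1 library, where fewer libraries make separation easier. These scalings, and the fit without HS7 replicates 3 and 4, were added after seeing the data. The highest counts without 1 library, 298 and 337, both came from leaving out LS replicate 3. In the edgeR fit without LS replicate 3, 1274 genes had an unadjusted p under 0.05, beside 581 in the main fit, again with 0 called.

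The Nox4 difference in means, 0.151 CPM, was 0.0396 in FPKM and -0.308 to 1.41 CPM without 1 library. Its log2 fold change, 0.03, became -0.02 with voom, -0.002 without a filter and -0.44 with the segment 3 covariate, and -0.12 to 0.45 without 1 library. Atp5f1, Upk3a and Krt15 reversed with voom (0.14, -0.46 and -1.27) and ranged without 1 library from -2.22 to 0.25, -0.036 to 1.78 and -0.067 to 1.63, and Slc34a1 reversed with the segment 3 covariate (-0.03). Of 2133 values for 102 named genes, 2106 kept direction and side of the threshold, 16 reversed and 11 passed with DESeq2.

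Same-numbered LS and HS21 libraries deviated with correlations from -0.18 to 0.34, and 1 of 5 correlated best with its own number, so the numbers were not taken as pairs. With the replicate block the counts were 0 for HS21 against LS, 0 for both HS7 comparisons, 5 for the strain difference and 0 for the tissue difference.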
